A study of Sus scrofa with 14 samples.

Results

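ACTA2, DES and CNN1, genes that mark smooth muscle, were measured in scrapings of the small intestinal mucosa of 7 piglets. By the study's account the scrapings held mainly epithelial and mucosal cells, and how much muscle came along is not stated. The 3 genes were found through the RefSeq accession that the array files give for each probe, and they had 10 probes, of the 43603 probes and 3020 named genes on the array. ACTA2 and DES had 4 probes each and CNN1 had 2. No probe was added by the gene names of the study's list of probes that changed over 1.5-fold in at least 3 pigs, although that list holds 2 of the 10, 1 of DES and 1 of CNN1.

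The animals were male piglets of 5 weeks old under anaesthesia, in the small intestinal segment perfusion (SISP) model, in which perfused loops of the living gut keep their blood and nerve supply. Paired loops lay at 31 to 58% of the length of the small intestine. One loop received a control digest (Sd) and the other a digest of yellow onion (YOd, pigs 1, 2 and 4) or of white onion (WOd, pigs 5, 6, 7 and 8), so each pig saw 1 onion only. After 6 h of perfusion, 10 cm of the caudal end was scraped, and each scraping was hybridised to 1 array of 1 colour, 14 arrays in all. Pig 3 was not analysed here.

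Smooth muscle in the gut wall lies in the outer muscle coat, in the thin muscularis mucosae below the crypts, in strands inside the villi and around arterioles. ACTA2 encodes the smooth muscle isoform of actin, which is also made by pericytes and myofibroblasts. DES encodes desmin, the intermediate filament of muscle cells, and CNN1 encodes calponin 1, an actin-binding protein of contractile smooth muscle. In a bulk scraping, fewer cells of a type and less RNA per cell cannot be told apart. The levels below thus measure the RNA of single smooth muscle genes and not the number of muscle cells.

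Per array, 50.05% to 70.69% of the probes stood well above background. The arrays lay on 5 slides. Both arrays of pigs 1, 4, 5, 6 and 8 shared a slide, whereas the Sd arrays of pigs 2 and 7 lay on slide 5, scanned in another session than their onion arrays. Precision is limited by the number of pigs, 3 with YOd and 4 with WOd, since the 2 arrays of a pig are paired. All 13 genes of an epithelial list that had a probe, among them EPCAM, FABP1, FABP2 and APOA4, were above the floor on all arrays, which fits the label of the tissue.

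All 3 smooth muscle genes were well above background on every array and none of their probes was saturated. Levels are log2 signals relative to the 75th percentile of the array, for the probe of a gene with the highest mean signal. They serve to compare arrays for 1 gene and not genes with each other. ACTA2, the actin, had a median of 3.49 in the 7 Sd segments, with its lowest level of 3.10 in pig 1 and its highest of 4.12 in pig 5. This is a 2.02-fold range between pigs that all received the control digest, and the other ACTA2 probes had ranges of 4.35-fold, 3.70-fold and 3.34-fold. DES had a median of 3.63, and lay between 2.89 (pig 5) and 4.49 (pig 1), a 3.03-fold range. CNN1 had a median of 1.55, and lay between 0.72 (pig 5) and 2.72 (pig 1), a 3.99-fold range. By these probes, pig 5 had the lowest DES and CNN1 and the highest ACTA2 of the Sd segments, and pig 1 had the highest DES and CNN1 and the lowest ACTA2. The order depended on the probe. ACTA2 probes 2, 3 and 4 were highest in pig 8 (2.67, 2.67 and 0.17), DES probes 2 and 3 were lowest in pig 8 (-2.66 and -3.16), and CNN1 probe 2 was lowest in pig 7 (-2.19).

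In the control segment, mean DES and CNN1 were higher in the pigs later compared with yellow onion than in those compared with white onion. The Sd level of DES was 4.14 ± 0.45 (SD, n = 3) in pigs 1, 2 and 4 and 3.34 ± 0.50 (SD, n = 4) in pigs 5 to 8. For CNN1 these levels were 2.11 ± 0.81 (SD, n = 3) and 1.19 ± 0.45 (SD, n = 4). For ACTA2 they were 3.39 ± 0.33 (SD, n = 3) and 3.69 ± 0.47 (SD, n = 4). The ranges of both sets of pigs overlapped for each gene, and this difference between pigs was not tested. It drops out of the comparisons below, which are made within pigs.

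**Figure D1:**
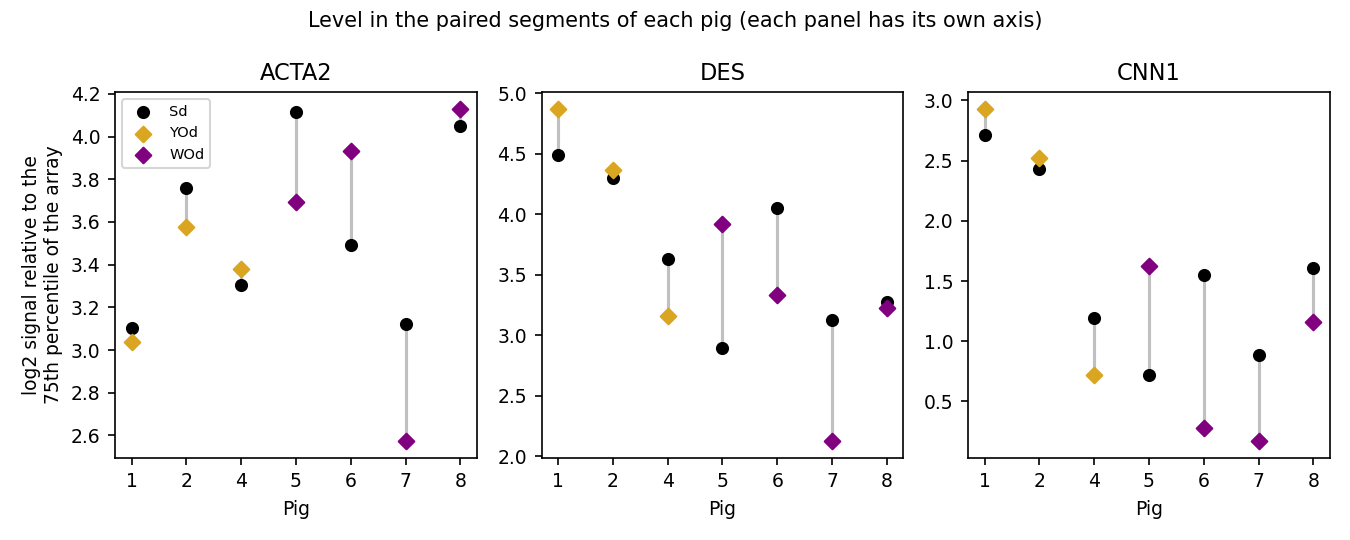
Log2 signal of ACTA2, DES and CNN1 relative to the 75th percentile of the array (vertical axis, 1 scale per panel) in the Sd segment (black circles) and the onion segment (diamonds, yellow for YOd and purple for WOd) of each pig (horizontal axis). Grey lines join the segments of a pig. Pigs 1 and 2 had the highest DES and CNN1 in both segments, and the ACTA2 of pig 7 after WOd was the lowest of all 14 arrays at 2.57.

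In the onion segments, DES had levels of 4.87, 4.37 and 3.16 in pigs 1, 2 and 4 after YOd. After WOd, pigs 5, 6, 7 and 8 had levels of 3.92, 3.33, 2.13 and 3.23. Pigs 1 and 2 thus kept the highest desmin level in both of their segments. CNN1 had levels of 2.93, 2.52 and 0.72 in pigs 1, 2 and 4 after YOd, and 1.62, 0.28, 0.17 and 1.16 in pigs 5, 6, 7 and 8 after WOd. ACTA2 was 3.04, 3.58 and 3.38 in pigs 1, 2 and 4 after YOd, and 3.69, 3.93, 2.57 and 4.13 in pigs 5, 6, 7 and 8 after WOd. For each of the 3 genes, the onion levels overlapped those of the Sd segments.

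Paired loops of 1 pig differed in DES and CNN1 by up to 2-fold or more, in either direction, whereas ACTA2 did not. For DES, the log2 ratio (onion over Sd) was 1.03 in pig 5, a 2.04-fold higher level after WOd, whereas it was -0.72 in pig 6 and -1.0 in pig 7, 0.50 times the Sd level, which received the same digest. In the remaining pigs 1, 2, 4 and 8 it was 0.38, 0.07, -0.48 and -0.05. CNN1 had ratios of 0.90 (pig 5), -1.27 (pig 6), -0.72 (pig 7) and -0.45 (pig 8) with WOd, and of 0.22 (pig 1), 0.09 (pig 2) and -0.47 (pig 4) with YOd. Both genes were over 1.5-fold higher in the onion segment of pig 5 and over 1.5-fold lower in those of pigs 6 and 7. ACTA2 had ratios of -0.07, -0.18 and 0.07 in pigs 1, 2 and 4 and of -0.42, 0.44, -0.55 and 0.08 in pigs 5, 6, 7 and 8. None of these reached 1.5-fold, and without scaling between arrays the ratio turned to -0.55 in pig 4 and -0.10 in pig 8.

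The share of all genes past 1.5-fold in either direction differed much between the pigs. With YOd it was 13.4% (pig 1), 1.47% (pig 2) and 24.1% (pig 4) of the 2182 genes above the floor on all arrays. With WOd it was 14.6% (pig 5), 15.4% (pig 6), 17.3% (pig 7) and 10.7% (pig 8). By the size of its ratio, DES stood at the 96.7th percentile of these genes in pig 5, the 90.7th in pig 6 and the 94.6th in pig 7. CNN1 stood at the 94.7th, 97.5th and 88.1th percentile in the same pigs. In pig 4, the pig with the most changed genes, DES was at the 66.0th and CNN1 at the 65.5th percentile. DES and CNN1 were past 1.5-fold in 3 pigs each, as were 10.9% of all genes in at least 3 of 7 pigs. Since the study's list was made with this criterion and holds the same 2 probes, no support is drawn from that count or from these percentiles.

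**Figure D2:**
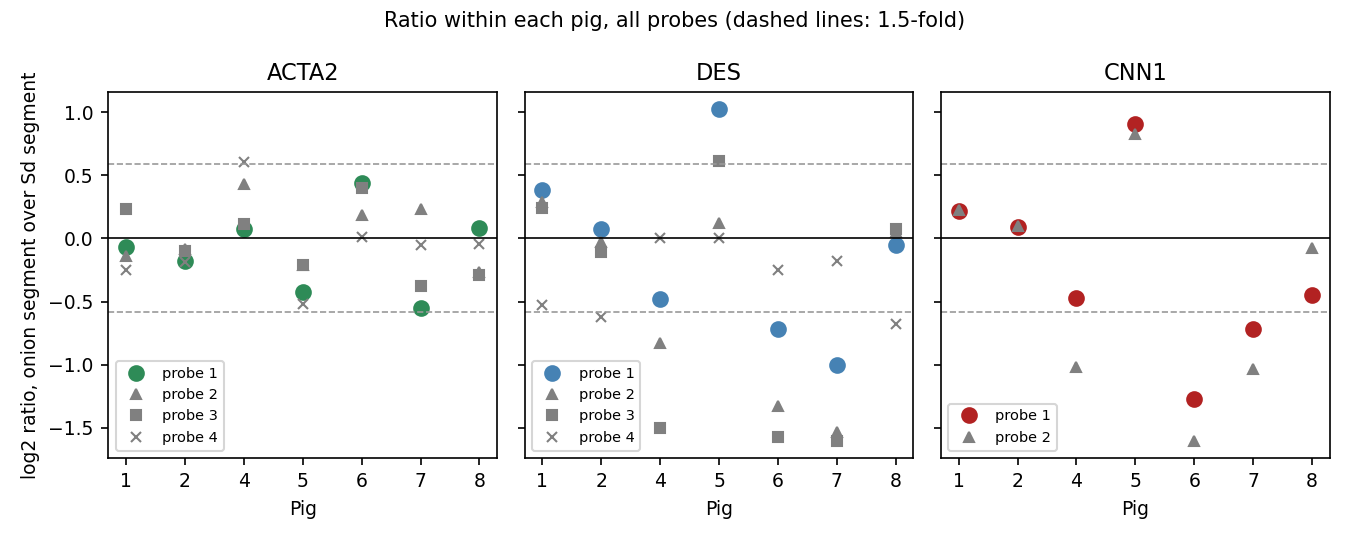
Log2 ratio of onion over Sd (vertical axis) in each pig (horizontal axis) for every probe of ACTA2, DES and CNN1. Coloured circles are the probe with the highest mean signal, grey symbols the other probes, and dashed lines mark 1.5-fold. For CNN1 both probes had the same sign in 7 of 7 pigs, whereas the ACTA2 probes stayed mostly within the dashed lines.

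The probes of a gene were compared to see how far the ratios rest on 1 probe. Both CNN1 probes had the same sign in 7 of 7 pigs and differed most in pig 4, by 0.54 on the log2 scale, where probe 2 had a ratio of -1.01. Probe 2 of CNN1 was lower than in the Sd segment by a log2 ratio of -1.60 in pig 6 and -1.03 in pig 7, and higher by 0.82 in pig 5. DES probes 2 and 3 had the same sign as each other in 7 of 7 pigs and as probe 1 in 5 of 7. In pigs 4, 6 and 7 these probes gave log2 ratios below that of probe 1, of -1.32 and -1.58 in pig 6, of -1.53 and -1.61 in pig 7, and of -0.83 and -1.5 in pig 4, where probe 1 had -0.48 and stayed within 1.5-fold. In pig 5 they gave smaller increases, of 0.12 and 0.61. DES probe 4 was at the floor on 7 of 14 arrays and carries little information.

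The ACTA2 probes were less alike than those of CNN1. Pairs of them had the same sign in 5 or 6 of 7 pigs, and probes 1 and 2 differed most in pig 7, where they had log2 ratios of -0.55 and 0.23. Over the 7 pigs, the ratios of the first ACTA2 probe correlated with those of the others with r = 0.17, 0.76 and 0.44. For DES these values were 0.88, 0.93 and, with the probe at the floor on 7 arrays, -0.09, and r was 0.95 between the CNN1 probes. Only 1 ratio of an ACTA2 probe passed 1.5-fold, that of probe 4 in pig 4, at 0.61.

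The spread of DES and CNN1 within pigs was above that of most genes. The SD between the segments of a pig was 0.46 for DES and 0.49 for CNN1 on the log2 scale, at the 90.6th and 92.6th percentile of the 2182 genes. For ACTA2 it was 0.23, which equals the median of all genes to 2 decimals. The median size of the ratio was 0.48 for DES, 0.47 for CNN1, 0.18 for ACTA2 and 0.23 for the median gene. These percentiles describe where the 3 genes lie and carry no test. DES and CNN1 each have a probe in the study's list, made from the ratios of these same pigs, so no support is drawn from their high percentiles.

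By their medians, differences between pigs exceeded those within pigs. Over the 21 pairs of Sd segments from different pigs, the median difference in log2 level was 0.74 for DES, 0.83 for CNN1 and 0.45 for ACTA2. The share of the variance that lay between pigs was 0.64 for DES, 0.71 for CNN1 and 0.77 for ACTA2, against a median of 0.60 over all genes. Both arrays of a pig lay on 1 slide in 5 of 7 pigs, but only 2 of the 21 pairs of Sd segments did, and the part of the slide in this difference was not tested. Those 2 pairs, pigs 2 and 7 and pigs 6 and 8, differed by 1.17 and 0.77 for DES, 1.54 and 0.06 for CNN1 and 0.63 and 0.56 for ACTA2.

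**Figure D3:**
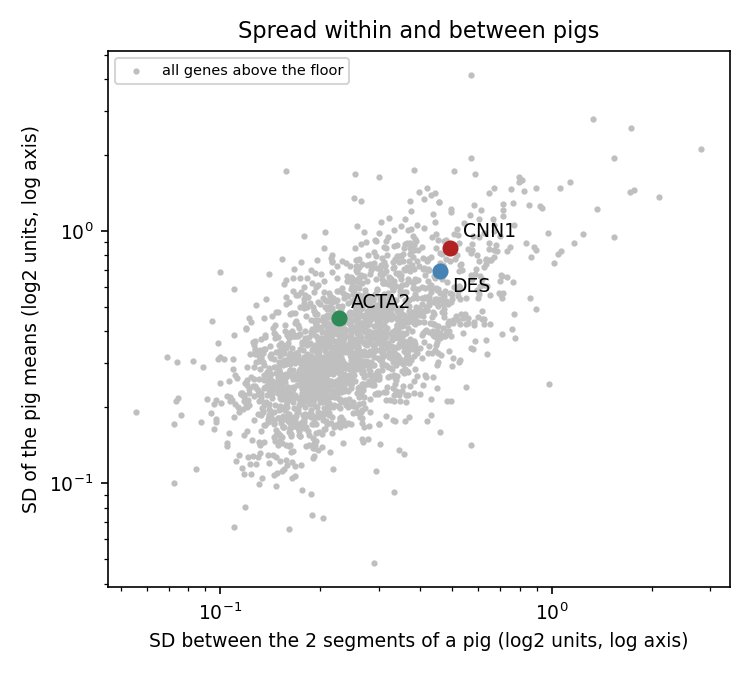
SD between the segments of a pig (horizontal axis, log2 units on a log axis) against the SD of the pig means (vertical axis, log2 units on a log axis). Each grey point is 1 of 2182 genes above the floor on all arrays. DES (0.46 within pigs) and CNN1 (0.49) lie to the upper right of most genes, while ACTA2 (0.23) lies near the middle of the horizontal range.

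DES and CNN1 varied together between the paired segments. Their ratios had the same sign in 7 of 7 pigs (6 of 7 with quantile normalization or the mean of all probes), with Pearson r = 0.92 (exact permutation test, two-sided, p = 0.00536, adjusted p = 0.0482) and Spearman rho = 0.96 (exact permutation p = 0.00278, adjusted p = 0.025). Adjustment was over 9 relations, the 3 pairs of these genes and each gene against an epithelial and a fibroblast list. Without pigs 5 and 7, the farthest from the median, r was 0.92. Over the 5 pigs whose arrays shared a slide, a set chosen after seeing the data, r was 0.97, which is given as a description. Both genes were read from the same arrays, so any error in scaling an array is shared by them. Both also have a probe in the study's list, made from the ratios of these same pigs, and were chosen with earlier results of these data known. The permutation p values do not allow for that choice and serve as a description.

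No shared movement of ACTA2 with DES or CNN1 was detected. Its ratio had the same sign as that of DES in 1 of 7 pigs and as that of CNN1 in 1 of 7 pigs, but these counts rose to 4 and 4 without scaling, and to 3 and 2 with quantile normalization or the mean of all probes. The correlation was r = -0.25 with DES (exact permutation p = 0.588, adjusted p = 0.662, rho = -0.18, exact permutation p = 0.713) and -0.57 with CNN1 (exact permutation p = 0.178, adjusted p = 0.556, rho = -0.39, exact permutation p = 0.396). Without pigs 6 and 7, r was -0.88 and -0.96. In pig 7 all 3 genes were lower in the onion segment. Single pigs decided r, which was -0.91 for DES and -0.98 for CNN1 without pig 7, 0.11 for DES without pig 5, and 0.03 for DES and -0.21 for CNN1 without pig 6. With the other ACTA2 probes, compared after seeing the data, r to DES was -0.75, -0.10 and -0.65.

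**Figure D4:**
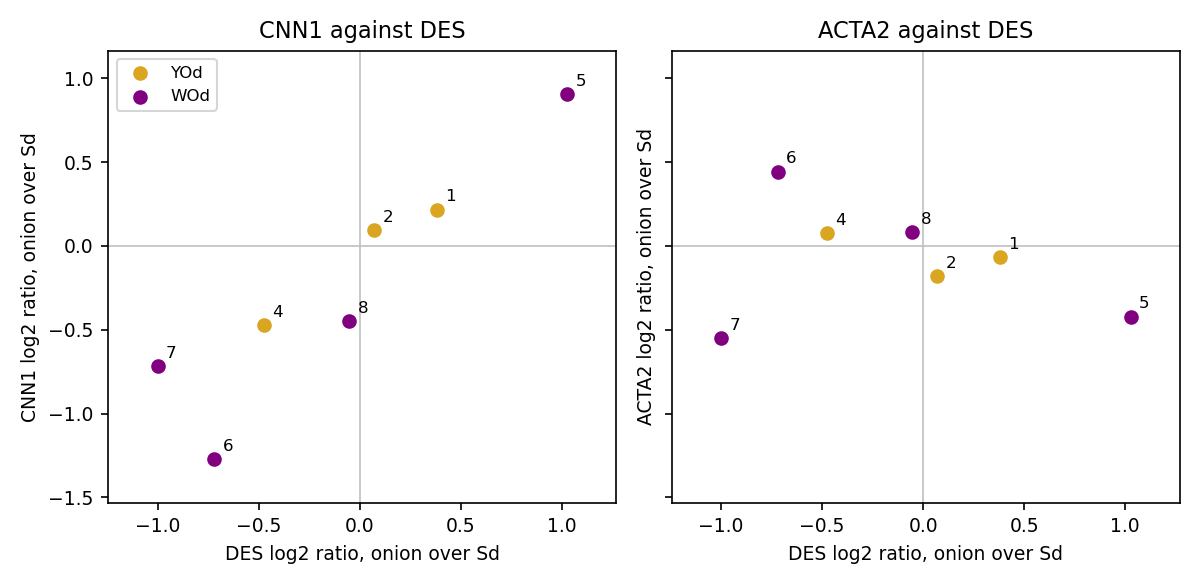
Log2 ratio of CNN1 (left) and of ACTA2 (right) against that of DES (horizontal axis), 1 point per pig with its number, yellow for YOd and purple for WOd. CNN1 rises with DES over the 7 pigs (r = 0.92), whereas ACTA2 does not (r = -0.25), and pig 7 lies apart from the other pigs in the right panel.

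The comparison of onion with Sd asks whether a digest went with a change in the RNA of these 3 genes, and no such change passed the thresholds. With limma and the pig as a block, the YOd/Sd log2 fold change was -0.01 for DES (95% interval -0.48 to 0.46, adjusted p = 0.984), -0.05 for CNN1 (-0.49 to 0.38, adjusted p = 0.885) and -0.06 for ACTA2 (-0.40 to 0.28, adjusted p = 0.834). These intervals still allow changes of about the size of the ratios of pig 4. For WOd/Sd the values were -0.19 for DES (-0.96 to 0.59), -0.38 for CNN1 (-1.17 to 0.41) and -0.11 for ACTA2 (-0.59 to 0.37), each with an adjusted p of 0.999. Of the 3 genes, 0 had a raw p below 0.05 together with a fold change over 1.5, against 4.53% of 2449 genes tested in YOd/Sd and 1.19% of 2429 in WOd/Sd. None of the genes tested passed a limma adjusted p of 0.05 in either comparison, while 274 and 67 of them had a raw p below 0.05. Probes without a gene symbol were not tested.

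Over the 7 pigs together, DES had a log2 fold change of -0.11 (95% interval -0.59 to 0.37, adjusted p = 0.854 with limma), CNN1 of -0.24 (-0.73 to 0.25, adjusted p = 0.700) and ACTA2 of -0.09 (-0.37 to 0.19, adjusted p = 0.796). Between the onions, the difference in effect (YOd minus WOd) was 0.18 for DES (-0.87 to 1.23), 0.33 for CNN1 (-0.72 to 1.38) and 0.05 for ACTA2 (-0.56 to 0.66), with limma adjusted p of 0.959, 0.910 and 0.973. Of the 3 genes, 0 passed the thresholds in these comparisons, against 1.25% and 3.52% of all genes. Over all genes, the fold changes centred on a log2 median of 0.14 (YOd/Sd), 0.05 (WOd/Sd) and 0.09 (7 pigs).

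Single pigs decided the result for white onion. Without pig 5, the WOd/Sd log2 fold change was -0.59 for DES and -0.81 for CNN1, both past the thresholds of raw p and fold change. The difference in effect between the onions was then 0.76 for CNN1, past them too. The share of all genes past the thresholds without pig 5 is not given here, so nothing is concluded from these calls. Without pig 6, the WOd/Sd value was -0.01 for DES and -0.09 for CNN1. Without pig 7, the WOd/Sd value of DES turned to 0.08. The value of CNN1 stayed negative with each of the 4 pigs left out, from -0.81 to -0.09.

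Other smooth muscle genes were taken from a list of 40, of which 19 had a named probe. Of these, 14 were above the floor on all arrays, PDLIM3 and SGCA on some, MYL6 and MYLK lacked 1 spot, and CHRM2, a muscarinic receptor, was at the floor throughout. Genes widely used as smooth muscle markers, such as MYH11, TAGLN and ACTG2, had no probe that could be named here. In YOd/Sd, 1 of 17 tested genes of the list was past the thresholds, against 4.53% of all genes, so nothing is concluded from the count. This gene was KCNMB1, a subunit of the calcium-activated potassium channel, with a YOd/Sd log2 fold change of 0.59 (limma adjusted p = 0.386, higher in 3 of 3 pigs). In WOd/Sd, 0 of 17 passed. KCNMB1 lay at the border of 1.5-fold, and it was lost under 4 other ways to process the arrays. The median log2 fold change of the tested list genes was 0.06 in YOd/Sd, -0.19 in WOd/Sd and -0.05 over the 7 pigs.

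Within pigs, genes of the wider list moved in different directions. TPM2, the beta-tropomyosin, came closest, with ratios of 0.35, -1.17, -0.59 and -0.17 in pigs 5, 6, 7 and 8 and of 0.41, -0.08 and -0.39 in pigs 1, 2 and 4. MYL9, the regulatory light chain of smooth muscle myosin, had ratios of 0.24 in pig 5, -0.54 in pig 6 and -0.27 in pig 7. VCL, the adhesion protein vinculin, went the other way, with -0.31, 0.40 and 0.11 in the same pigs. Of the 14 genes, 1 was over 1.5-fold higher and 0 lower in pig 5 (against 14.6% of all genes in either direction), 0 higher and 3 lower in pig 6 (15.4%), and 1 higher and 4 lower in pig 7 (17.3%). In pigs 1 and 8, in which DES and CNN1 stayed within 1.5-fold, 2 genes were higher and 2 lower (13.4% and 10.7%). In pig 2, 1 was higher (1.47%), and in pig 4 there were 0 (24.1%). In pig 5, 6 of the 14 genes had a ratio above 0, among them ACTN1 (0.63), MYOCD (0.55), FHL1 (0.51) and TPM1 (0.41), and in pig 6, 10 of 14 were below 0. The median ratio of the list was 0.29, 0.07 and 0.16 in pigs 1, 2 and 4 and -0.12, -0.11, -0.15 and -0.09 in pigs 5, 6, 7 and 8. Its mean was 0.03 in pig 5, where mean and median differ in sign, -0.31 in pig 6 and -0.28 in pig 7. The summed level of the list, in which bright genes such as VCL weigh most, changed little. From Sd to onion it went from 62.6 to 65.0 in pig 5, from 59.6 to 60.5 in pig 6 and from 54.7 to 50.2 in pig 7.

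**Figure D5:**
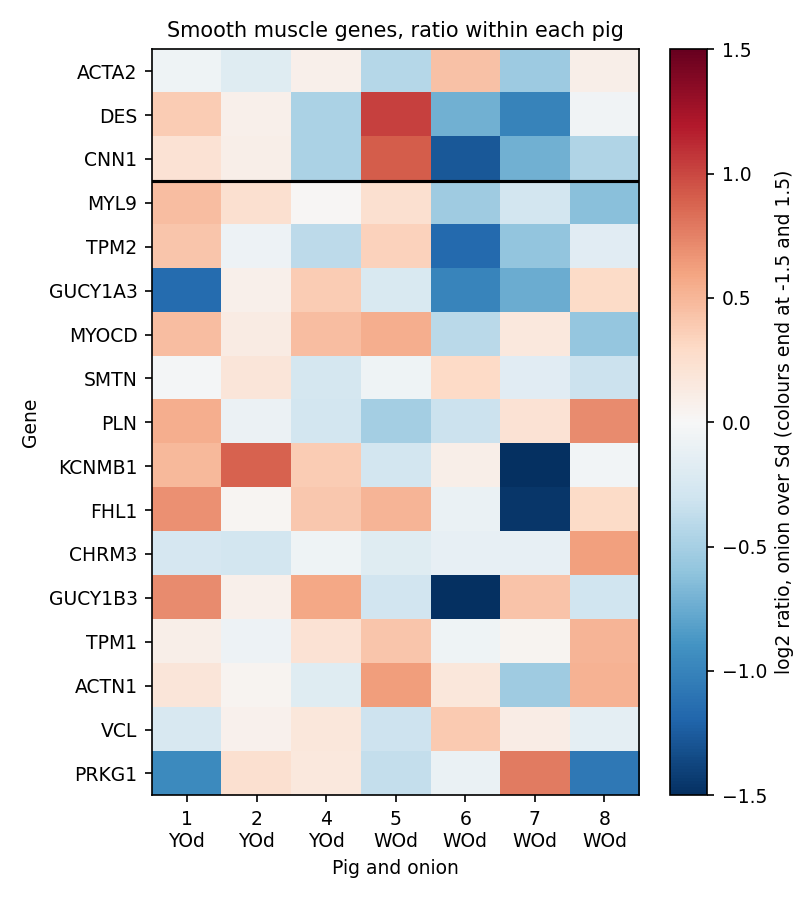
Log2 ratio of onion over Sd (red higher, blue lower, colours end at -1.5 and 1.5) for ACTA2, DES and CNN1 (above the line) and the 14 genes of the wider smooth muscle list above the floor on all arrays, ordered by their correlation with CNN1 over the arrays. Columns are pigs with their onion. TPM2 (-1.17) was low with CNN1 (-1.27) in pig 6, and KCNMB1 (-1.83) and FHL1 (-1.46) were low in pig 7.

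Over the 14 arrays, DES and CNN1 levels correlated with r = 0.92, while ACTA2 had r = -0.01 with DES and -0.06 with CNN1. Arrays of 1 pig are not independent, so these values are descriptions. The genes most like the mean of the 3, of 2179 compared, were MYL9 (r = 0.86), TPM2 (0.83), the chemokine receptor gene XCR1 (0.82), TIMP1, an inhibitor of matrix metalloproteinases (0.78), and MFAP2, a microfibril gene (0.78). They were followed by SELENOM, TNNI2, GJC1, SMTN (smoothelin, r = 0.76) and KCNG1. The least like were OXCT1 (-0.77), an enzyme of ketone body use, ANXA9, HCRT, CASP1 and LCAT. The mean of the 3 had r = 0.94 with DES and with CNN1, but 0.24 with ACTA2. Over the 7 ratios, r with the mean was 0.66 (MYL9), 0.86 (TPM2), 0.89 (XCR1), 0.82 (TIMP1) and -0.27 (MFAP2). It was 0.51 (SELENOM), 0.70 (TNNI2), -0.05 (GJC1), 0.01 (SMTN) and 0.62 (KCNG1). For the least like it was -0.95, -0.93, 0.32, -0.24 and -0.47, in the order given. MYL9 had r = 0.93 with CNN1 and -0.11 with ACTA2, and TPM2 had 0.86 and 0.20. MYOCD, the cofactor that drives contractile genes, had r = 0.75 with CNN1 and 0.23 with ACTA2.

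The genes most like ACTA2 over the arrays were ITGAL (r = 0.80), SERPINB9 (0.78), ACTA1 (0.78), SPARC (0.75) and CD3D (0.74). Over the 7 ratios of the pigs, r with ACTA2 was -0.12 (ITGAL), -0.22 (SERPINB9), -0.15 (SPARC) and 0.10 (CD3D). ITGAL and CD3D belong to leukocytes and SPARC to the matrix of connective tissue. ACTA1 is the skeletal muscle actin, whose sequence is nearly the same as that of ACTA2, and its ratios over the 7 pigs had r = 0.93 with those of ACTA2. Whether probes of 1 actin gene also bound transcripts of another was not tested. Of 12 skeletal and heart muscle genes with a probe, 6 were above the floor on all arrays (ACTA1, ACTC1, CKM, TNNC2, TNNT3 and MYOG). The myosin heavy chains MYH1, MYH2 and MYH7 were at the floor on some of them. ACTC1, another actin gene, had levels from 3.96 (pig 4) to 5.12 (pig 5) in the Sd segments. Its ratios were -0.16, -0.25 and 0.07 in pigs 1, 2 and 4. In pigs 5, 6, 7 and 8 they were -0.64, 0.21, 0.21 and 0.28.

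Markers of other cell types were set beside these results as levels summed over the list, relative to the 75th percentile of the array. The epithelial sum (13 of 25 genes) ranged from 993 to 1987 in the Sd segments, from 1374 to 1954 after YOd and from 1398 to 1806 after WOd. Many of these genes gave very bright signals, such as KRT8 (7.43) and FABP1 (7.34) in the Sd segment of pig 1. Per array, 545 to 964 probes were saturated, and whether the epithelial probes were among them was not tested. The Sd array of pig 4 had the lowest epithelial sum, the highest median signal (83.1) and the most saturated probes (964). The Sd array of pig 5 had the highest sum, the lowest median signal (38.7) and the fewest saturated probes (545). The epithelial sum may thus follow the scaling, and segments are not compared by it. The sum of fibroblast and matrix genes (10 of 20 with a probe) ranged from 25.3 to 92.2 in Sd, 31.1 to 90.7 in YOd and 24.0 to 63.8 in WOd. That of endothelium and pericytes (6 of 11) ranged from 4.44 to 11.9, 7.78 to 9.81 and 4.85 to 11.1. The ranges of the fibroblast and endothelial lists overlapped between Sd and onion segments. Within pigs, the fibroblast sum went from 55.8 to 24.0 in pig 6, in which CNN1 had its lowest ratio, and from 39.0 to 69.9 in pig 1. In pig 6 the largest falls were in MGP (4.49 to -0.90) and TIMP1 (4.05 to 2.92). The median ratio of the list there was 0.04, with 1 gene over 1.5-fold higher and 2 lower, so the fall was not one of the list as a whole. The part of the fibroblast sum in the results was not tested. With limma, 0 genes of the epithelial and of the skeletal and heart muscle lists had a raw p below 0.05 in any comparison. The serosal gene WT1, the only mesothelial marker with a named probe, was at the floor on all arrays.

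With 7 pigs, no relation of the DES and CNN1 ratios to those of fibroblast genes was detected. For epithelial genes the values cannot decide, since their mean may follow the scaling of the arrays. Against the mean ratio of the epithelial list, r was -0.41 for DES (exact permutation p = 0.348, adjusted p = 0.556, rho = -0.14, exact permutation p = 0.783) and -0.36 for CNN1 (exact permutation p = 0.433, adjusted p = 0.556, rho = -0.11, exact permutation p = 0.840). Against the fibroblast list, r was 0.43 for DES (exact permutation p = 0.339, adjusted p = 0.556, rho = 0.68, exact permutation p = 0.110) and 0.50 for CNN1 (exact permutation p = 0.252, adjusted p = 0.556, rho = 0.71, exact permutation p = 0.0881). Without the farthest 2 pigs, r was 0.67 for DES and 0.63 for CNN1 against that list. ACTA2 had r = 0.39 with the epithelial list (exact permutation p = 0.386, adjusted p = 0.556) and -0.07 with the fibroblast list (exact permutation p = 0.877, adjusted p = 0.877). None of these 6 relations passed. For the fibroblast list, 7 pigs leave room for a moderate relation in either direction. Bright epithelial genes had nearly 1 ratio within a pig, in pig 4 0.62 (FABP1), 0.63 (FABP2), 0.62 (APOA1) and 0.62 (ANPEP). In that pig, scaling moved the ACTA2 ratio from -0.55 to 0.07. The epithelial mean may thus follow the scaling, and no conclusion on epithelium is drawn from it. The fibroblast mean was -0.61 in pig 6, where the median was 0.04.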

How the data were processed

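For the pig SISP segments, RNA of mucosal scrapings was hybridised to 1-colour Agilent arrays. The authors deposited scanner files of Feature Extraction with the processed signal of each spot, a background-corrected, linear intensity, and a table of log2 values for the same arrays, which the study describes as floored and whose centring is unknown. These log2 values served as an alternative. Outlier spots were left out (5 to 462 per array), and spots of 1 probe were averaged. Each array was scaled to its 75th percentile, and low values were raised to the 40th percentile of all arrays (log2 -4.43) before logs were taken. Of 43603 probes, 6686 received a gene symbol from their RefSeq accession and the Sscrofa11.1 reference, whose coordinates were not used. Where a gene had several probes, the brightest on average was taken.

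Groups came from the sample titles. For the 4 comparisons, limma (version 3.58.1, R version 4.3.3) was run over all genes above the floor on at least as many arrays as the smaller group held, with the pig as a block, after the paired analysis of the study. Arrays with the same number come from the same pig, and their deviations from the group means correlated (r = 0.48 to 0.78 per pig). Genes passed at a raw p under 0.05 with a fold change over 1.5, with Benjamini-Hochberg values beside them. Correlations over pigs used exact two-sided permutation tests (scipy 1.17.1, Python 3.11.15). Scripts were tested on simulated data. Named genes were the 3 genes with all probes, the wider smooth muscle list, and the 10 genes most like and 5 least like their mean. The genes and the marker lists (smooth muscle, epithelium, fibroblast and matrix, enteric neurons and glia, interstitial cells of Cajal, endothelium and pericytes, skeletal and heart muscle, mesothelium, lymphocytes) were chosen with earlier results of these data known. GUCY1A1 and GUCY1B1 were matched by the older symbols GUCY1A3 and GUCY1B3.

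Alternatives covered scaling, background correction, floor, filter, probe choice, the authors' values, the replicate block, the slide and each pig left out. Normexp (offset 50) was run on the median signal of the spots, since the files used here hold no mean signal.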

Additional observations from a re-analysis of the deposited data

Results flagged for a closer look

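In 3 of 41 groups of values looked at, 1 pig lay far from the others. Chance alone marks about 1 in 20 groups. They were KCNMB1 in pig 7 (log2 ratio -1.83, the other pigs from -0.28 to 0.89), FHL1 in pig 7 (-1.46, the others from -0.10 to 0.69) and CHRM3 in pig 8 (0.61, the others from -0.28 to -0.07). No group of ACTA2, DES or CNN1 values had such a pig.

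The effects of the 2 onions differed by raw p and fold change for 3 genes of the lists, against 3.52% of all 2497 genes tested. They were 1 of 16 tested genes of the wider smooth muscle list, 1 of 9 of the fibroblast list and 1 of 6 of the endothelial list. The other lists had none, and nothing is concluded from the count. The log2 difference (YOd minus WOd) was 1.10 for KCNMB1, 2.08 for LOX, which cross-links collagen, and 1.23 for CLDN5, an endothelial claudin, each with a limma adjusted p of 0.852. None passed the adjustment. Single pigs weighed much in these values. In pigs 1, 2 and 4, the YOd ratios were 3.95, -0.16 and 0.53 for LOX and 1.79, -0.15 and 0.51 for CLDN5. For KCNMB1, the WOd side holds the ratio of -1.83 in pig 7.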

How the results depend on the processing

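Log2 fold changes of ACTA2, DES and CNN1 stayed short of the thresholds except without pig 5, but signs of the values near 0 turned, and the cause was not tested. In YOd/Sd, ACTA2 was 0.037 with the mean of all probes and 0.0037 with pig and slide as terms. With pig and slide as terms, WOd/Sd was 0.034 for ACTA2 and 0.085 for DES, the value over 7 pigs was 0.022 for ACTA2 and 0.032 for DES, and the difference between the onions (YOd minus WOd) was -0.031 for ACTA2 and -0.13 for DES. That difference for ACTA2 was also -0.029 with quantile normalization, -0.22 without scaling, -0.0033 with normexp and -0.016 with the authors' values, and for DES -0.10 without scaling. Leaving out 1 pig, YOd/Sd ranged from -0.12 to 0.0037 (ACTA2), -0.20 to 0.23 (DES) and -0.19 to 0.15 (CNN1). WOd/Sd ranged from -0.30 to 0.034, -0.59 to 0.085 and -0.81 to -0.087. Over 7 pigs DES ranged from -0.30 to 0.038, and the difference between onions from -0.092 to 0.24, -0.093 to 0.58 and 0.032 to 0.76. The replicate block (pig) changed no call of these genes: without it the log2 fold changes were the same (DES in WOd/Sd, -0.19).

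The count of the wider list in YOd/Sd (1 gene) was 0 with quantile normalization, no scaling, normexp, the authors' values and no block, and 1 to 2 with a pig left out. In WOd/Sd it was 2 with pig and slide as terms and 0 to 2 with a pig left out. For the difference (1 gene) it was 0 without scaling, without the filter, with the authors' values and without the block, and 0 to 3 with a pig left out.

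The correlation of DES with CNN1 was positive in all settings run, 0.84 to 0.96 with a pig left out and, chosen after seeing the data, 0.79, 0.85 and 0.02 with the other DES probes, the last at the floor on 7 arrays. That of ACTA2 with DES was 0.076 without scaling and ranged from -0.91 to 0.11 with a pig left out. DES and CNN1 shared a sign in 6 of 7 pigs with quantile normalization or the mean of all probes, where a ratio near 0 turned. Without scaling, the median ratio of all genes ranged from -0.43 to 0.16 between pigs, and the ratios of DES and CNN1 in pig 2 turned to -0.05 and -0.03. The median size of the ratio, 0.18 for ACTA2, was 0.30 with quantile normalization, 0.33 without scaling and 0.13 to 0.30 with a pig left out, and that of CNN1, 0.47, was 0.79 without scaling and 0.74 with the mean of all probes. Signal over background limits the dimmer DES probes.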

Other observations

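Probes that the study's list of changed probes names for smooth muscle genes, but that carry no accession here, had ratios of their own. They were listed for the size of their ratios, so no support is drawn from them. CNN2, a calponin of less specialised cells, was lower in the onion segment in pigs 6, 7 and 8 (log2 ratios -1.13, -1.30 and -0.66) and higher in pigs 1, 4 and 5 (0.50, 0.53 and 0.49). RYR2, a calcium release channel, was lower in pigs 1, 4 and 8 (-1.47, -1.21 and -1.35) and had ratios from -0.33 to 0.16 in the others. GUCY1B3, a subunit of the nitric oxide receptor, had -1.86 in pig 6 and 0.98 in pig 1, while its partner GUCY1A3 had -1.17 in pig 6 and 2.32 in pig 7. The accession-named probes of these genes often disagreed with them in sign. For GUCY1A3 the listed and the accession-named probe had 0.66 and -1.15 in pig 1, and 2.32 and -0.74 in pig 7, and their signs also differed in pigs 2 and 8. For GUCY1B3 they had -0.76 and 0.42 in pig 7, and their signs also differed in pigs 5 and 8.

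Of the remaining lists, KIT, which marks interstitial cells of Cajal, was above the floor on all arrays. LOX had a WOd/Sd log2 fold change of -0.64 (limma adjusted p = 0.999). Of 9 lymphocyte genes with a probe, 5 were above the floor on all arrays and 0 passed the thresholds in any comparison. Of 6 genes of enteric neurons and glia with a probe, UCHL1 and NEFL were above the floor on all arrays.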
